A study of Mus musculus with 12 samples.

Results

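Ectopic expression of HNF4A (HNF4A EE) in NIH 3T3 cells, a line of mouse embryonic fibroblasts, was compared with the empty vector across all genes that either group expressed. The 3 HNF4A EE samples came from cells transduced with a lentivirus that carries mouse *Hnf4a* (isoform 2) followed by an IRES and eGFP, and the 3 empty vector samples from cells transduced with the vector alone. RNA was taken 72 h after transduction from what the methods call biological replicates. Both groups are the same cell line and differ by the label of the construct. Whether virus dose, batch and handling matched between them is not stated. For the comparison with tissue, 3 livers of *Hnf4a* cKO mice, in which tamoxifen activates a Cre driven by the *Albumin* promoter and so deletes floxed *Hnf4a* in hepatocytes, stood against 3 control livers. The methods give the controls as floxed, Cre-negative mice without tamoxifen. Elsewhere the study describes them as sharing the cKO genotype, untreated, and the labels call them WT.

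Each group has 1 deposited FPKM per gene, a fragment count corrected for transcript length and for library size. No value per sample is given, so the spread between the replicates, an SD or a test over samples could not be had, and every difference below is a ratio of 2 group values without a replicate check. The sequencing depth is unknown. A gene was taken when the table marks it as OK and at least 1 of its 2 FPKM values is 1 or higher. This held for 10748 of 24340 entries, of which 10064 reached 1 FPKM in HNF4A EE and in empty vector cells, 414 only in HNF4A EE cells and 270 only in empty vector cells. A gene is called higher or lower when the log2 ratio of FPKM, HNF4A EE over empty vector, was 1 or more or -1 or less, that is a fold of 2.

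HNF4A is a nuclear receptor that binds DNA as a homodimer at direct repeats spaced by a single base. In the adult it is made in hepatocytes and in the epithelia of gut, kidney and pancreatic islets, where its known targets encode apolipoproteins, clotting factors and enzymes of lipid and drug metabolism. Fibroblasts do not normally express it, and in combination with other factors it is used to convert fibroblasts into hepatocyte-like cells.

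The transgene and the cell type markers were looked at before the other genes. *Hnf4a* was listed at 1758 FPKM in HNF4A EE cells and at 0.639 FPKM in empty vector cells, a 2752-fold difference, which made it the entry with rank 14 of HNF4A EE cells and 0.368% of their summed FPKM. The entry, at chr2:163547188-163572907 of mm10, does not separate RNA of the vector from RNA of the endogenous gene. *Hnf4a* stood at 144 FPKM in cKO livers and at 275 FPKM in control livers, in a table that was normalized apart. Of 14 fibroblast markers 10 were expressed, and 6 of the 9 with a ratio were lower, beside 10.6% lower and 11.7% higher of all genes, among them *Vim*, *Col3a1* and *Cd34*, while *Fn1*, *Pdgfra* and *Ddr2* lay within 2-fold. *Thy1*, expressed but without a ratio, went the other way, at 1.08 FPKM in HNF4A EE cells and listed at 0 in empty vector cells. The summed FPKM of the 14 markers was 547 in HNF4A EE cells and 8273 in empty vector cells. In RNA of a whole culture, fewer cells that express a gene and less RNA per cell cannot be told apart. *Dcn*, *Fap*, *Lum* and *Pdgfrb* were at or below 0.1 FPKM in HNF4A EE and in empty vector cells.

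Of 15 epithelial and 16 hepatocyte markers 2 each met the rule, so most of both lists stayed low. The epithelial list was lower in sum, at 3.37 FPKM in HNF4A EE and 14.8 FPKM in empty vector cells. Of these sums *Krt14*, which met the rule, gave 0.349 FPKM in HNF4A EE and 13.4 FPKM in empty vector cells. The other that met it was *Krt8*. The defining epithelial genes *Epcam* and *Cldn3* were listed at 0 in HNF4A EE and in empty vector cells, *Cdh1* (E-cadherin) at 0.0735 FPKM in HNF4A EE and 0.428 FPKM in empty vector cells, and *Krt8* at 1.18 FPKM in HNF4A EE and 0.384 FPKM in empty vector cells. Of 16 hepatocyte markers 10 were at or below 0.1 FPKM in HNF4A EE and in empty vector cells. The 2 that met the rule were *Afp*, at 51.1 FPKM in HNF4A EE and 55.8 FPKM in empty vector cells, and *Apoc3*. *Apoc3* was at 5.996 FPKM in HNF4A EE cells and listed at 0 in empty vector cells. It met the rule through HNF4A EE cells alone. *Apob* stayed below 1 FPKM, at 0.935 FPKM in HNF4A EE and 0.0126 FPKM in empty vector cells. *Alb* was listed at 0 in HNF4A EE cells and at 0.00918 FPKM in empty vector cells, *Ttr* at 0.0166 FPKM in HNF4A EE cells and 0 in empty vector cells, and *Tat* and *Ahsg* at 0 in HNF4A EE and in empty vector cells. The macrophage list was higher in sum, at 82.3 FPKM in HNF4A EE and 23.3 FPKM in empty vector cells, of which *Cd14* gave 60.9 FPKM in HNF4A EE and 12.1 FPKM in empty vector cells. Of the 4 macrophage markers that were expressed 3 were higher (median 1.70): *Cd14*, *Lyz2* (lysozyme) at 16.3 FPKM in HNF4A EE and 7.73 FPKM in empty vector cells, and *Csf1r*, the receptor for the macrophage growth factor CSF1, at 2.71 FPKM in HNF4A EE and 0.0233 FPKM in empty vector cells. *Csf1r* was below 1 FPKM in empty vector cells and so met the rule through HNF4A EE cells alone. Of the 12 entries of the macrophage list 7 were at or below 0.1 FPKM in HNF4A EE and in empty vector cells, among them *Ptprc* (CD45) and *Adgre1*, which was listed at 0 in both. The 10 adipocyte markers were also higher in sum, at 86.9 FPKM in HNF4A EE and 32.4 FPKM in empty vector cells, with 2 of the 3 expressed genes higher. These were *Fabp4*, a fatty acid binding protein, at 21.7 FPKM in HNF4A EE and 0.303 FPKM in empty vector cells, and *Cidec*, of the lipid droplet, at 1.64 FPKM in HNF4A EE and 0.0226 FPKM in empty vector cells. *Fabp4* and *Cidec* were below 1 FPKM in empty vector cells and so met the rule through HNF4A EE cells alone. *Lpl* (lipoprotein lipase) lay just within 2-fold, at 63.3 FPKM in HNF4A EE and 32.05 FPKM in empty vector cells, and 6 of the 10 were at or below 0.1 FPKM in HNF4A EE and in empty vector cells. The part of these cell types in the other differences was not tested. The 10 endothelial markers summed to 1.70 FPKM in HNF4A EE and 1.71 FPKM in empty vector cells.

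Over the whole set higher and lower genes were close in number. Of 10701 genes with a ratio, 1248 (11.7%) were higher and 1137 (10.6%) were lower, so that higher genes made up 52.3% of the calls. The median log2 ratio was -0.012 and the quartiles were -0.50 and 0.50. Large differences leaned upwards: 110 genes were higher by 16-fold or more and 30 were lower by as much. This lean takes in genes that met the rule through 1 group alone. Of 393 genes higher by 4-fold or more, 203 were below 1 FPKM in empty vector cells. Of 256 genes lower by 4-fold or more, 103 were below 1 FPKM in HNF4A EE cells. The genes called higher held 12.3% of all FPKM in HNF4A EE cells and 3.32% in empty vector cells, and the genes called lower held 4.07% in HNF4A EE cells and 12.4% in empty vector cells. The scaling between the groups is unknown, and with the 2 columns set to the same FPKM sum every log2 ratio moves up by 0.144, which gives 1528 higher and 919 lower genes, or 62.4% of the calls.

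**Figure D1:**
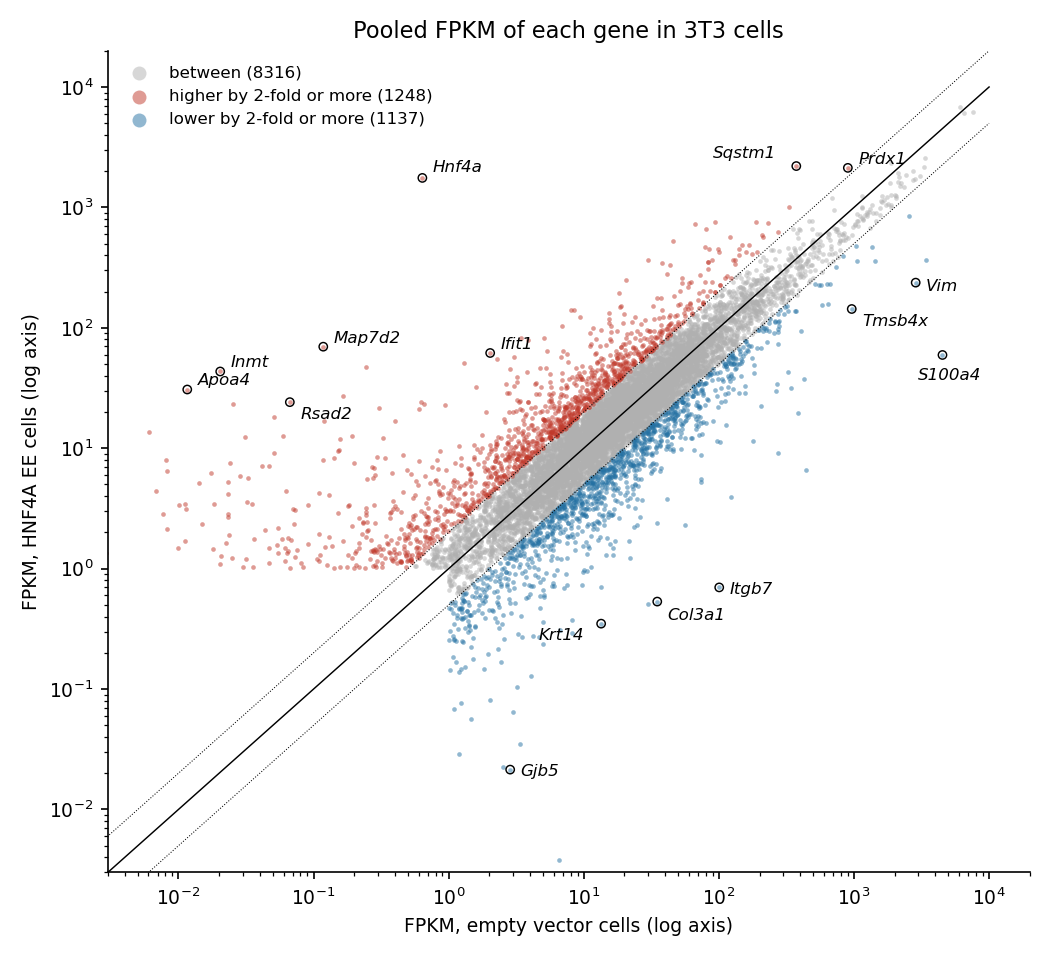
Pooled FPKM of each gene in HNF4A EE cells (y axis, log scale) and in empty vector cells (x axis, log scale). Each point is a gene with values in both groups that lie within the axes. Red points are genes higher by 2-fold or more (1248), blue points lower genes (1137) and grey points those between (8316). The counts include genes outside the axes, such as *Snora26*. The solid line marks equal FPKM and the dotted lines 2-fold, and *Hnf4a* is the point farthest above the line at high FPKM.

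The floor of 1 FPKM decides which genes enter. Just inside it stood *Lfng* (0.257 FPKM in HNF4A EE, 1.001 in empty vector cells), *2900009J06Rik* (0.814 FPKM in HNF4A EE, 1.002 in empty vector cells) and *Hoxc5* (0.663 FPKM in HNF4A EE, 1.003 in empty vector cells). Just outside stood *Tmem241* (0.626 FPKM in HNF4A EE, 0.999 in empty vector cells), *Scara3* (0.109 FPKM in HNF4A EE, 0.997 in empty vector cells) and *Klk8* (0.994 FPKM in HNF4A EE, 0.335 in empty vector cells).

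The genes were then ordered by their FPKM in empty vector cells, in 6 classes. From 1 to below 5 FPKM, 334 of 1894 genes (17.6%) were higher and 257 (13.6%) lower. From 5 to below 20 FPKM the counts were 398 (9.85%) higher and 407 (10.1%) lower of 4042. Between 20 and 100 FPKM 180 of 3500 (5.14%) were higher and 342 (9.77%) lower, and between 100 and 500 FPKM 23 of 759 (3.03%) were higher and 113 (14.9%) lower. At 500 FPKM or more 1 of 131 genes was higher and 18 (13.7%) were lower. The class below 1 FPKM holds 375 genes with a ratio, 312 of them higher and 0 lower, a count that the rule fixes, since such a gene enters only when HNF4A EE cells reach 1 FPKM.

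The tilt across these classes belongs in part to the way of classing, because the FPKM of empty vector cells is also the denominator of the ratio. With the genes classed by HNF4A EE cells instead, the tilt turned round: from 100 to below 500 FPKM 100 of 736 genes (13.6%) were higher and 32 (4.35%) lower. Classed by the geometric mean of both groups, the same range held 57 higher and 51 lower genes of 710, and the range from 1 to below 5 FPKM 322 higher and 323 lower genes of 1958. The class of 500 FPKM or more kept a median below 0 in each of the 3 ways, at -0.38 by HNF4A EE, -0.53 by empty vector and -0.48 by the geometric mean. Ribosomal proteins made up much of this class: by HNF4A EE cells it has 51 ribosomal protein genes, all with a ratio below 0 and a median of -0.53, and 61 other genes with a median of 0.07, of which 14 were higher and 1 lower. Classed by empty vector cells the other genes had a median of -0.50, with 1 higher and 16 lower of 69, and by the geometric mean a median of -0.22, with 3 higher and 8 lower of 60.

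**Figure D2:**
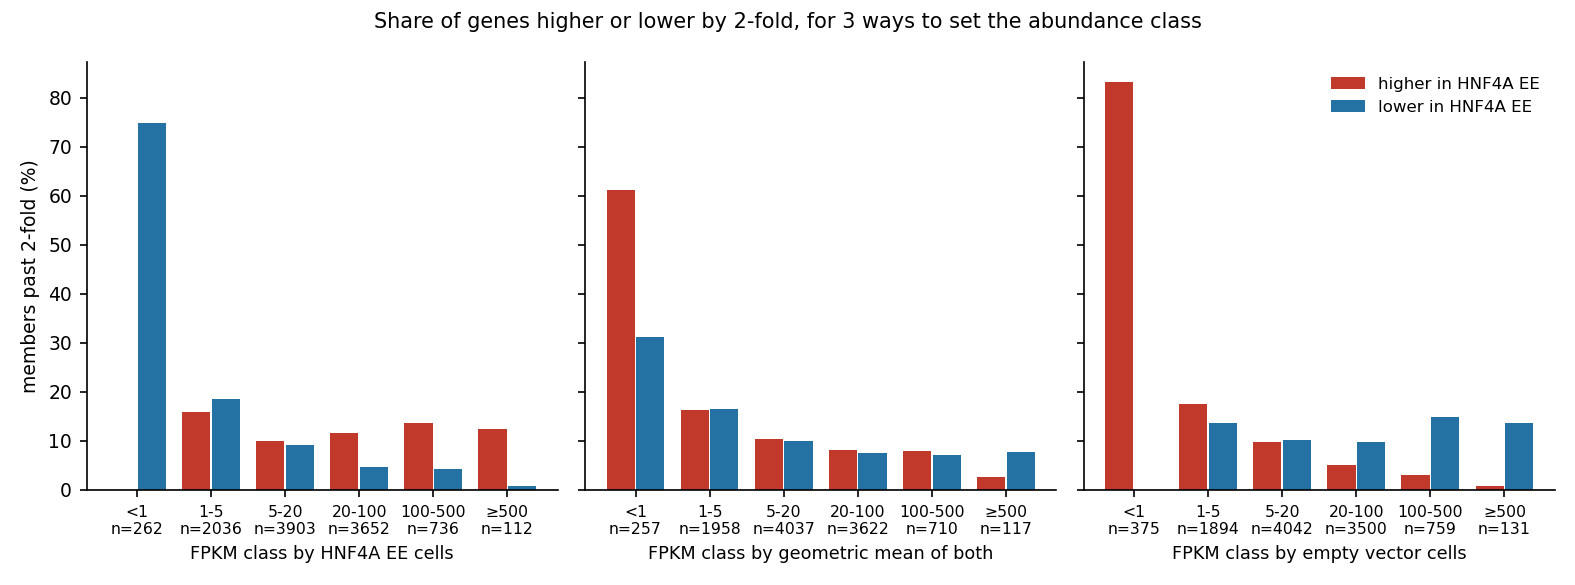
Percent of genes higher (red) or lower (blue) by 2-fold or more in HNF4A EE cells, in 6 classes of FPKM set by HNF4A EE cells (left), by the geometric mean of both groups (middle) or by empty vector cells (right), with n genes per class under each pair of bars. The abundant genes have an excess of higher genes at left and of lower genes at right, and the middle panel is nearly even from 1 to 500 FPKM.

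Genes with little or no RNA in empty vector cells gave the highest ratios. *Apoa4*, an apolipoprotein of intestinal and hepatic lipid particles, was at 30.7 FPKM in HNF4A EE cells and 0.0116 FPKM in empty vector cells. *Inmt*, an N-methyltransferase of indole amines, was at 43.4 FPKM in HNF4A EE cells and 0.0204 FPKM in empty vector cells. *Clca4b*, of the calcium-activated chloride channel regulator family, was at 13.6 FPKM in HNF4A EE and 0.00606 FPKM in empty vector cells, and *Alpi*, the intestinal alkaline phosphatase of the brush border, at 7.94 FPKM in HNF4A EE and 0.00811 FPKM in empty vector cells. These denominators are so small that the log2 ratios, between 9.93 for *Alpi* and 11.37 for *Apoa4*, say little beyond near absence in empty vector cells. A further 39 genes were listed at 0 in empty vector cells and have no ratio, among them the apolipoprotein genes *Apoc3* at 5.996 FPKM and *Apoc4* at 2.31 FPKM in HNF4A EE cells, *S100g* at 5.38 FPKM, *Lcn2* at 2.37 FPKM and *Saa2* at 2.01 FPKM.

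In the classes above 1 FPKM the ends of the range held genes of many kinds. Among genes of 1 to below 5 FPKM in empty vector cells, the low end held *Gjb5*, a connexin of gap junctions, at 0.0214 FPKM in HNF4A EE and 2.85 FPKM in empty vector cells, the joint growth factor *Gdf5* at 0.0227 FPKM in HNF4A EE and 2.54 FPKM in empty vector cells, and the cytokine *Il24* at 0.0350 FPKM in HNF4A EE and 3.40 FPKM in empty vector cells. From 5 to below 20 FPKM the highest ratios included *Oasl1*, an interferon-induced OAS-like protein, at 103 FPKM in HNF4A EE and 6.90 FPKM in empty vector cells, and *Dusp5*, a nuclear phosphatase of ERK, at 123.3 FPKM in HNF4A EE and 9.37 FPKM in empty vector cells. At its low end *Krt14*, a basal keratin, had 0.349 FPKM in HNF4A EE and 13.4 FPKM in empty vector cells, and *Trerf1*, a zinc finger regulator of transcription, 0.290 FPKM in HNF4A EE and 8.15 FPKM in empty vector cells.

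From 20 to below 100 FPKM the highest ratios included *Serpinb9b* (368 FPKM in HNF4A EE, 29.9 in empty vector cells), *Tkfc*, which phosphorylates dihydroxyacetone and glyceraldehyde (249 FPKM in HNF4A EE, 20.4 in empty vector cells), *Pold4*, the small subunit of DNA polymerase delta (522 FPKM in HNF4A EE, 45.8 in empty vector cells), and *Rhod*, an endosomal GTPase (346 FPKM in HNF4A EE, 37.7 in empty vector cells). The lowest included *Col3a1*, a fibrillar collagen chain, at 0.533 FPKM in HNF4A EE and 35.0 FPKM in empty vector cells. *Ly6a* (Sca-1) had 0.513 FPKM in HNF4A EE and 29.8 FPKM in empty vector cells, though it is 1 of several close LY6 copies between which reads can be shared. From 100 to below 500 FPKM *Itgb7*, an integrin beta subunit known from lymphocytes, had the lowest ratio of the class, with 0.699 FPKM in HNF4A EE and 101 FPKM in empty vector cells. The highest of that class was *Sqstm1*, the autophagy receptor p62, at 2205 FPKM in HNF4A EE and 374 FPKM in empty vector cells, followed by *Ctsz* (cathepsin Z) at 566 FPKM in HNF4A EE and 122 FPKM in empty vector cells and *Gsto1*, a glutathione transferase, at 752 FPKM in HNF4A EE and 187 FPKM in empty vector cells.

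The most abundant RNAs of the 2 groups overlapped in part. Of the 10 highest entries 5 were shared, and the top 10 held 7.21% of all FPKM in HNF4A EE and 8.25% in empty vector cells. *Fth1*, the ferritin heavy chain, was first in HNF4A EE cells at 6881 FPKM, against 6132 FPKM in empty vector cells, and the elongation factor *Eef1a1* had 6087 FPKM in HNF4A EE and 6550 in empty vector cells. *Prdx1*, a peroxiredoxin that removes peroxides, was the only gene of the class of 500 FPKM or more in empty vector cells that was higher, with 2130.1 FPKM in HNF4A EE and 901 FPKM in empty vector cells. Lower genes of that class were *Vim*, the intermediate filament of mesenchymal cells, at 237 FPKM in HNF4A EE and 2863 FPKM in empty vector cells, *Tmsb4x*, which holds actin monomers, at 143 FPKM in HNF4A EE and 963 FPKM in empty vector cells, and the mitochondrial chaperonin *Hspe1* at 158 FPKM in HNF4A EE and 647 FPKM in empty vector cells. Below 1 FPKM in HNF4A EE cells, and at 10 FPKM or more in empty vector cells, were 10 entries, among them *Itgb7*, *Col3a1*, *Ly6a*, *Krt14*, *Pcyt1b*, *Cbr2* and 3 small nucleolar RNAs.

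The genes were also grouped into 114 families, each read against the median of -0.012 and the shares of 11.7% higher and 10.6% lower over all genes. In any family, genes below 1 FPKM in empty vector cells met the rule through HNF4A EE cells alone and could not be lower. Examples are 2 of 17 collagen chains, 1 of 10 tight junction genes, 2 of 18 MHC class I genes and 3 of 24 nuclear receptors. Others are 2 of 20 AP-1 and CREB/ATF factors, 2 of 36 NRF2 genes and 2 of 44 lysosomal genes. Of the 17 expressed collagen chains 2 were higher and 11 lower, with a median log2 ratio of -1.80. *Col6a1* and *Col6a2*, chains of the beaded filament collagen, had 2.81 and 2.07 FPKM in HNF4A EE cells and 16.2 and 9.68 FPKM in empty vector cells, and *Col5a2*, which regulates the width of fibrils, had 32.8 FPKM in HNF4A EE and 155 FPKM in empty vector cells. *Col4a5* of the basement membrane lay between, at 27.7 FPKM in HNF4A EE and 43.2 FPKM in empty vector cells. The enzymes that process and crosslink collagen did not share this shift, with 3 higher, 3 lower and a median of -0.21 over 16 genes. *Lox*, the lysyl oxidase that crosslinks collagen, was at 126 FPKM in HNF4A EE and 55.7 FPKM in empty vector cells, while its relative *Loxl3* was at 1.23 FPKM in HNF4A EE and 7.47 FPKM in empty vector cells.

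Most other matrix families also had more lower than higher genes. Of 25 matrix glycoproteins 12 were lower and 3 higher, with a median of -0.75. *Spp1* (osteopontin) had 37.7 FPKM in HNF4A EE and 425 FPKM in empty vector cells, *Tnc* (tenascin C) 1.87 FPKM in HNF4A EE and 11.4 FPKM in empty vector cells, and *Mfge8*, a bridge between dying cells and phagocytes, 159 FPKM in HNF4A EE and 61.2 FPKM in empty vector cells. The proteoglycan *Bgn* (biglycan) was at 1.30 FPKM in HNF4A EE and 16.3 FPKM in empty vector cells. All 4 expressed matrix metalloproteinases were lower, among them *Mmp2*, a gelatinase, at 7.41 FPKM in HNF4A EE and 34.5 FPKM in empty vector cells, and *Mmp14*, its activator at the membrane, at 10.1 FPKM in HNF4A EE and 26.8 FPKM in empty vector cells. Their inhibitors *Timp1* and *Timp2* were lower as well, with 51.4 and 73.7 FPKM in HNF4A EE cells and 129 and 276 FPKM in empty vector cells.

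Genes of cell contacts divided by type of junction. All 5 expressed connexins were lower, with a median of -4.17. Among them *Gja1* (connexin 43) had 42.1 FPKM in HNF4A EE and 96.7 FPKM in empty vector cells. Of 12 protocadherins 6 were lower and 0 higher (median -1.13), with *Pcdh19* at 1.49 FPKM in HNF4A EE and 16.5 FPKM in empty vector cells. The 10 expressed genes of tight junctions and epithelial adhesion had 5 higher, 0 lower and a median of 0.94. Among the higher were genes of the junction plaque: *Pkp3* (plakophilin 3) was at 24.8 FPKM in HNF4A EE and 3.40 FPKM in empty vector cells, and *Jup* (plakoglobin) at 27.6 FPKM in HNF4A EE and 7.05 FPKM in empty vector cells. The list holds 43 entries, of which the other 33 did not meet the rule and are not in the count. *Cdh2* (N-cadherin) lay between, at 25.4 FPKM in HNF4A EE and 37.1 FPKM in empty vector cells.

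The cytoskeleton showed no common direction. The 33 genes of the contractile apparatus that SRF is known to drive had 2 higher, 4 lower and a median of -0.01, with opposite values for related genes: the actin crosslinker *Flna* had 49.6 FPKM in HNF4A EE and 180.4 FPKM in empty vector cells, its relative *Flnc* 95.05 FPKM in HNF4A EE and 13.5 FPKM in empty vector cells. *Actn4*, an actin bundler, was at 484 FPKM in HNF4A EE and 166 FPKM in empty vector cells, and *Tpm2* (tropomyosin 2) at 6.24 FPKM in HNF4A EE and 31.2 FPKM in empty vector cells. Of 14 tubulins 4 were lower and 1 higher, with *Tubb5* at 358 FPKM in HNF4A EE and 1049 FPKM in empty vector cells and *Tubb2a* at 235 FPKM in HNF4A EE and 59.9 FPKM in empty vector cells. Tubulin genes are alike in sequence, and reads can be shared among them. The B-type lamins of the nuclear envelope were lower, *Lmnb1* at 30.2 FPKM in HNF4A EE and 92.8 FPKM in empty vector cells and *Lmnb2* at 8.95 FPKM in HNF4A EE and 24.6 FPKM in empty vector cells. Of 4 expressed keratins 3 were higher, each below 10 FPKM in HNF4A EE cells, and *Krt14* was lower. Of the 3 higher keratins 2, *Krt76* and *Krt8*, were below 1 FPKM in empty vector cells and so met the rule through HNF4A EE cells alone.

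Ligands and receptors of the FGF, PDGF and VEGF and TGF-beta families went both ways. The 10 expressed genes of the EGF family had 2 higher and 0 lower (median 0.47), beside 11.7% higher and 10.6% lower of all genes. The higher ones were the ligand *Ereg* (epiregulin), at 21.6 FPKM in HNF4A EE and 4.04 FPKM in empty vector cells, and the ligand *Btc* (betacellulin), at 2.28 FPKM in HNF4A EE and 0.940 FPKM in empty vector cells. *Btc* met the rule through HNF4A EE cells alone. *Fgf7*, a fibroblast factor that acts on epithelia, was at 5.60 FPKM in HNF4A EE and 73.5 FPKM in empty vector cells, and the receptor *Fgfr1* at 103 FPKM in HNF4A EE and 47.5 FPKM in empty vector cells. *Vegfa*, the main factor of vessel growth, was at 59.5 FPKM in HNF4A EE and 17.4 FPKM in empty vector cells, while *Figf* (VEGF-D) was at 3.79 FPKM in HNF4A EE and 24.6 FPKM in empty vector cells. *Kitl* (stem cell factor) was at 132 FPKM in HNF4A EE and 54.9 FPKM in empty vector cells. Over 35 genes of the TGF-beta and BMP pathways 6 were higher and 9 lower, with *Fstl1*, a secreted follistatin-like protein, at 8.81 FPKM in HNF4A EE and 73.3 FPKM in empty vector cells and the inhibitory *Smad6* at 11.5 FPKM in HNF4A EE and 3.24 FPKM in empty vector cells. Of 13 ephrins and EPH receptors 7 were lower and 2 higher, namely the ligand *Efnb1* (21.0 FPKM in HNF4A EE, 3.38 in empty vector cells) and the receptor *Epha2* (218 FPKM in HNF4A EE, 59.0 in empty vector cells).

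Of 9 expressed chemokines 5 were lower and 3 higher. *Ccl2* and *Ccl7*, which attract monocytes, had 15.6 and 16.1 FPKM in HNF4A EE cells and 113 and 80.1 FPKM in empty vector cells, and *Cxcl5* had 2.29 FPKM in HNF4A EE and 24.97 FPKM in empty vector cells. The neutrophil chemokine *Cxcl1* was on the other side, at 91.2 FPKM in HNF4A EE and 11.2 FPKM in empty vector cells. The 19 NF-kB subunits and feedback genes had 5 higher, 1 lower and a median of 0.81, with the inhibitor *Nfkbia* at 50.5 FPKM in HNF4A EE and 17.9 FPKM in empty vector cells and *Ptgs2* (COX-2), the inducible enzyme of prostaglandin synthesis, at 403 FPKM in HNF4A EE and 140.0 FPKM in empty vector cells.

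Genes known as interferon targets formed the family with the largest share of higher genes among those of 20 members or more. Of 36 expressed genes 29 were higher and 2 lower, with a median of 2.06, and 10 of the 36 were below 1 FPKM in empty vector cells and so entered only through HNF4A EE cells. *Isg15*, a ubiquitin-like modifier, was at 52.0 FPKM in HNF4A EE and 7.62 FPKM in empty vector cells, and *Ifit1*, which binds foreign RNA, at 61.8 FPKM in HNF4A EE and 2.03 FPKM in empty vector cells. *Zbp1*, a sensor of nucleic acids, was at 7.93 FPKM in HNF4A EE and 0.117 FPKM in empty vector cells, and *Slfn2*, of the Schlafen family, at 5.21 FPKM in HNF4A EE and 0.0233 FPKM in empty vector cells. The 2 lower genes were *Ifi27l2a* (0.719 FPKM in HNF4A EE, 4.22 in empty vector cells) and *Slfn9* (10.3 FPKM in HNF4A EE, 23.5 in empty vector cells). The IRG GTPases, which act on vacuoles of microbes, lay with them: *Irgm2* had 12.2 FPKM in HNF4A EE and 0.326 FPKM in empty vector cells, *Igtp* 22.8 FPKM in HNF4A EE and 0.946 FPKM in empty vector cells, and *Irgm1* 44.8 FPKM in HNF4A EE and 13.5 FPKM in empty vector cells.

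Antigen presentation and sensing of nucleic acids were on the same side with smaller ratios. Of 18 genes of MHC class I and antigen processing 8 were higher and 0 lower (median 0.46), led in abundance by *B2m*, the light chain of class I molecules, at 1014 FPKM in HNF4A EE and 329 FPKM in empty vector cells, and by the heavy chain *H2-D1* at 593 FPKM in HNF4A EE and 207 FPKM in empty vector cells. H2 genes are near copies and can share reads. Of 16 sensing genes 6 were higher and 0 lower (median 0.61), with the adaptor *Ticam1* at 25.3 FPKM in HNF4A EE and 3.18 FPKM in empty vector cells and *Tlr3*, the receptor that signals through it, at 6.81 FPKM in HNF4A EE and 2.13 FPKM in empty vector cells.

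Interferon acts through the element ISRE, and its letters were looked up in RefSeq promoters (GRCm38.p6, 250 bases before to 50 after the start site). GAAA followed by GAAA after any 2 bases, on either strand, occurs in 13 of the 26 interferon target promoters found, and in 3.51% of all 15485 promoters. It is in 4.33% of promoters of higher genes and 3.35% of those of lower genes. The 13 interferon targets with the letters had 10 higher and 1 lower gene (median log2 ratio 2.77), and the 13 without had 10 higher and 0 lower (median 1.32). These promoters, chosen after the values were seen, show how the element sits in genes of very different level in empty vector cells, with capitals for the matched letters on either strand, overlapping matches joined. *Isg15* is shown at chr4:156200819-156200918 (minus strand), *Ifit1* at chr19:34640765-34640888 (plus strand), *Irgm1* at chr11:48871421-48871520 (minus strand) and *Rsad2* at chr12:26456493-26456592 (minus strand).
Isg15: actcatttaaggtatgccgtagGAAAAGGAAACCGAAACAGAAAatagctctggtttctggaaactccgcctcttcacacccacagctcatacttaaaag
Ifit1: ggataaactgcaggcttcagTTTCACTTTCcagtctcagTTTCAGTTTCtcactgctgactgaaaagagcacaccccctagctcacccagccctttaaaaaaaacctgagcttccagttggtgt
Irgm1: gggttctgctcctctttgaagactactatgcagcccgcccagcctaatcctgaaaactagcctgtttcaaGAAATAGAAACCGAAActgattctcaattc
Rsad2: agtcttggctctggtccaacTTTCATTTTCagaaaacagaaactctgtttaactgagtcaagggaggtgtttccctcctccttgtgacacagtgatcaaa
*Isg15* has 3 overlapping matches, *Ifit1* and *Irgm1* have 2 each and *Rsad2* has 1. The edge nearest to the start site lies 15 bases before it in *Irgm1*, 57 in *Isg15*, 76 in *Ifit1* and 111 in *Rsad2*. *Rsad2* (viperin), the entry with a single match, had the highest log2 ratio of the 4, 8.5, at 24.1 FPKM in HNF4A EE and 0.0667 FPKM in empty vector cells.

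**Figure D3:**
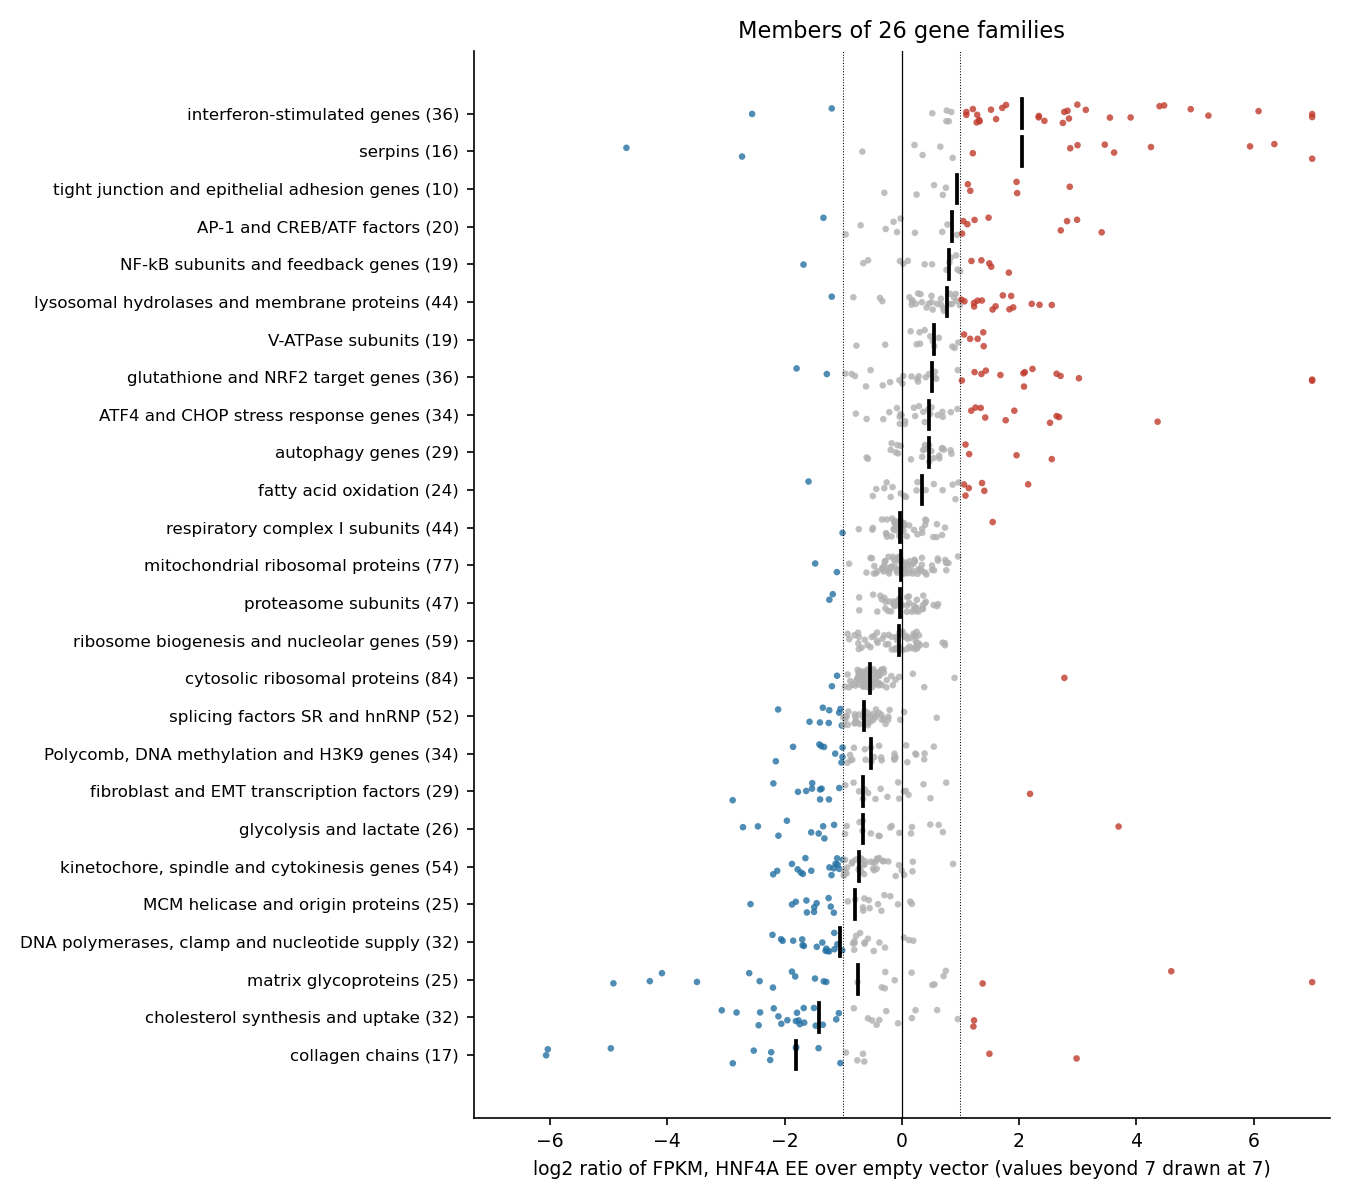
Log2 ratio of FPKM, HNF4A EE over empty vector, for the genes of 26 families with n genes in parentheses; each point is a gene (red higher, blue lower, grey between), the bar is the family median, the dotted lines mark 2-fold and values beyond 7 are drawn at 7. Interferon-stimulated genes and serpins stand highest with medians of 2.06 and 2.04, mitochondrial ribosomal proteins, proteasome subunits and complex I stand at 0, and collagen chains stand lowest with -1.80.

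Transcription factors of the fibroblast and of epithelial-mesenchymal transition had 11 lower and 1 higher gene of 29 (median -0.66). *Runx2*, known from bone, was at 1.48 FPKM in HNF4A EE and 10.9 FPKM in empty vector cells, *Prrx1*, a factor of limb mesenchyme, at 3.75 FPKM in HNF4A EE and 17.1 FPKM in empty vector cells, *Twist1* at 17.6 FPKM in HNF4A EE and 46.3 FPKM in empty vector cells and *Zeb1*, a repressor of E-cadherin, at 2.77 FPKM in HNF4A EE and 7.14 FPKM in empty vector cells. The 25 expressed Hox genes kept closer, with 3 lower and 1 higher (median -0.47). Among 24 nuclear receptors 5 were higher, 1 of them the transduced *Hnf4a* itself, and 5 lower. Another higher one was *Esrra*, an estrogen-related receptor of energy metabolism, at 34.7 FPKM in HNF4A EE and 12.65 FPKM in empty vector cells. Lower were *Nr2f2* (COUP-TFII), which is known to bind the same kind of repeat as HNF4A, at 21.7 FPKM in HNF4A EE and 71.3 FPKM in empty vector cells, and *Thra*, a thyroid hormone receptor, at 3.10 FPKM in HNF4A EE and 11.7 FPKM in empty vector cells. Of 22 listed liver transcription factors only *Hnf4a* itself and *Sox9* were expressed, and *Sox9* was at 12.1 FPKM in HNF4A EE and 13.3 FPKM in empty vector cells. AP-1 and CREB/ATF factors had 9 higher and 1 lower of 20 (median 0.86), with the small MAF genes *Mafk* at 129.97 FPKM in HNF4A EE and 19.8 FPKM in empty vector cells and *Maff* at 151 FPKM in HNF4A EE and 19.01 FPKM in empty vector cells. The 295 Zfp zinc finger genes stayed near the background, with 20 higher and 21 lower and a median of -0.04.

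Genes of DNA replication and mitosis were lower or between, with 0 higher among 25 genes of the MCM helicase and origin proteins, 32 of the polymerases and nucleotide supply, 54 of kinetochore and spindle and 40 of DNA repair. Their medians were -0.79, -1.06, -0.73 and -0.72, and 11, 17, 16 and 11 of them were lower. *Tk1*, the thymidine kinase of S phase, had 16.5 FPKM in HNF4A EE and 75.9 FPKM in empty vector cells, *Lig1*, which joins Okazaki fragments, 16.9 FPKM in HNF4A EE and 70.4 FPKM in empty vector cells, and *Pold1*, the catalytic subunit of polymerase delta, 10.9 FPKM in HNF4A EE and 44.5 FPKM in empty vector cells. Its small partner *Pold4*, named above, was the exception in direction and stood outside the list. *Mcm5* of the helicase was at 38.5 FPKM in HNF4A EE and 119 FPKM in empty vector cells, *Nuf2* of the kinetochore at 12.3 FPKM in HNF4A EE and 45.1 FPKM in empty vector cells and *Bub1b* of the spindle checkpoint at 15.6 FPKM in HNF4A EE and 53.4 FPKM in empty vector cells. *Aurka*, a kinase of the spindle poles, lay between but on the upper side, with 112 FPKM in HNF4A EE and 61.0 FPKM in empty vector cells. *Cdkn1a* (p21), an inhibitor of CDKs, was higher, at 144 FPKM in HNF4A EE and 55.9 FPKM in empty vector cells, and *Cdk4* lower, at 137 FPKM in HNF4A EE and 366 FPKM in empty vector cells. Of 30 p53 target genes 6 were higher and 1 lower (median 0.11). The letters TTTGAA of the CHR element of cell cycle genes, on either strand, occur in 67.5% of 40 kinetochore promoters and in 15.7% of all promoters, and the median log2 ratio was -0.69 for the 27 with and -0.84 for the 13 without.

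Protein synthesis had narrow ranges. The 84 cytosolic ribosomal proteins had 1 higher and 2 lower genes, but 80 of the 84 had a ratio below 0 and the median was -0.53. With the columns set to the same sum 78 of them stayed below 0. *Rpl32* was at 2001 FPKM in HNF4A EE and 2717 FPKM in empty vector cells, *Rplp1* at 2586 FPKM in HNF4A EE and 3347 FPKM in empty vector cells, and *Rpl8* at 1820.5 FPKM in HNF4A EE and 3077 FPKM in empty vector cells. The 77 mitochondrial ribosomal proteins had a median of -0.01 with 2 lower, the 59 genes of ribosome biogenesis -0.05 with 0 called, the 47 proteasome subunits -0.03 with 2 lower and the 20 aminoacyl-tRNA synthetases 0.17 with 0 called. Scaling to the same sum lifts the first 3 of these medians above 0. Of 52 splicing factors of the SR and hnRNP type 9 were lower and 0 higher, and 43 lay between, with a median of -0.64. Among the lower, *Hnrnpd* (AUF1), which binds AU-rich RNA, was at 15.7 FPKM in HNF4A EE and 67.8 FPKM in empty vector cells. The 34 target genes of ATF4 and CHOP in the stress response had 10 higher and 0 lower (median 0.47). *Ddit3* (CHOP) was at 92.3 FPKM in HNF4A EE and 15.99 FPKM in empty vector cells and *Ppp1r15a* (GADD34), which restores translation after stress, at 72.9 FPKM in HNF4A EE and 11.4 FPKM in empty vector cells, while *Atf4* itself was at 328 FPKM in HNF4A EE and 333 FPKM in empty vector cells.

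In lipid metabolism, sterol genes stood apart from fatty acid genes. Of 32 genes of cholesterol synthesis and uptake 19 were lower and 2 higher (median -1.41). *Hmgcs1*, which makes HMG-CoA, was at 16.96 FPKM in HNF4A EE and 90.5 FPKM in empty vector cells, *Fdps* at 42.2 FPKM in HNF4A EE and 181 FPKM in empty vector cells, and *Srebf2*, the factor known to drive these genes, at 12.5 FPKM in HNF4A EE and 51.7 FPKM in empty vector cells. The 2 higher genes were *Npc1*, which exports cholesterol from lysosomes (13.2 FPKM in HNF4A EE, 5.62 in empty vector cells), and *Lpcat3*, which remodels phospholipids (47.6 FPKM in HNF4A EE, 20.4 in empty vector cells). Genes of fatty acid and triglyceride synthesis went both ways, 9 higher and 6 lower of 34, with the desaturase *Scd2* at 29.7 FPKM in HNF4A EE and 264 FPKM in empty vector cells and *Dgat2*, which makes triglyceride, at 12.4 FPKM in HNF4A EE and 2.33 FPKM in empty vector cells. Of 24 genes of fatty acid oxidation 6 were higher and 1 lower (median 0.34). Among the higher was *Acadvl*, a mitochondrial acyl-CoA dehydrogenase, at 70.3 FPKM in HNF4A EE and 27.2 FPKM in empty vector cells.

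Glycolysis had 9 lower and 1 higher gene of 26 (median -0.67). *Pkm*, the pyruvate kinase, was at 465 FPKM in HNF4A EE and 1356 FPKM in empty vector cells and *Pfkl*, a phosphofructokinase, at 17.5 FPKM in HNF4A EE and 67.9 FPKM in empty vector cells. The TCA cycle and complex I were level, with medians of 0.03 over 32 genes and -0.04 over 44. Genes of glutathione and the NRF2 response had 14 higher and 2 lower of 36 (median 0.51). *Hmox1*, which breaks down heme, was at 759 FPKM in HNF4A EE and 93.5 FPKM in empty vector cells, the glutathione transferase *Gsta4* at 427 FPKM in HNF4A EE and 99.6 FPKM in empty vector cells and *Nfe2l2* (NRF2) at 350.1 FPKM in HNF4A EE and 82.5 FPKM in empty vector cells. *Nqo1*, often used as a readout of NRF2, was level at 38.5 FPKM in HNF4A EE and 39.6 FPKM in empty vector cells, and *Mgst3* was lower at 22.8 FPKM in HNF4A EE and 79.3 FPKM in empty vector cells. *Aldh3a1*, an aldehyde dehydrogenase, was at 31.8 FPKM in HNF4A EE and 342 FPKM in empty vector cells. The water channel *Aqp1* was at 658 FPKM in HNF4A EE and 80.0 FPKM in empty vector cells, and *Aqp5* at 14.6 FPKM in HNF4A EE and 67.8 FPKM in empty vector cells.

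Lysosomal genes were higher in 15 of 44 cases and lower in 1, with a median of 0.77. *Lipa*, the lysosomal acid lipase, was at 80.0 FPKM in HNF4A EE and 15.7 FPKM in empty vector cells and *Ctsa* (cathepsin A) at 141 FPKM in HNF4A EE and 37.8 FPKM in empty vector cells. The proton pump that acidifies lysosomes followed, with 5 higher and 0 lower of 19 V-ATPase subunits (median 0.55), among them *Atp6v1c1* at 152 FPKM in HNF4A EE and 57.8 FPKM in empty vector cells and *Atp6v1e1* at 201 FPKM in HNF4A EE and 76.7 FPKM in empty vector cells. The 29 autophagy genes had 4 higher and 0 lower (median 0.47) and the 40 RAB GTPases 3 higher and 2 lower (median 0.02). *Tfeb*, a factor known to drive lysosomal genes, was at 2.74 FPKM in HNF4A EE and 2.05 FPKM in empty vector cells.

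**Figure D4:**
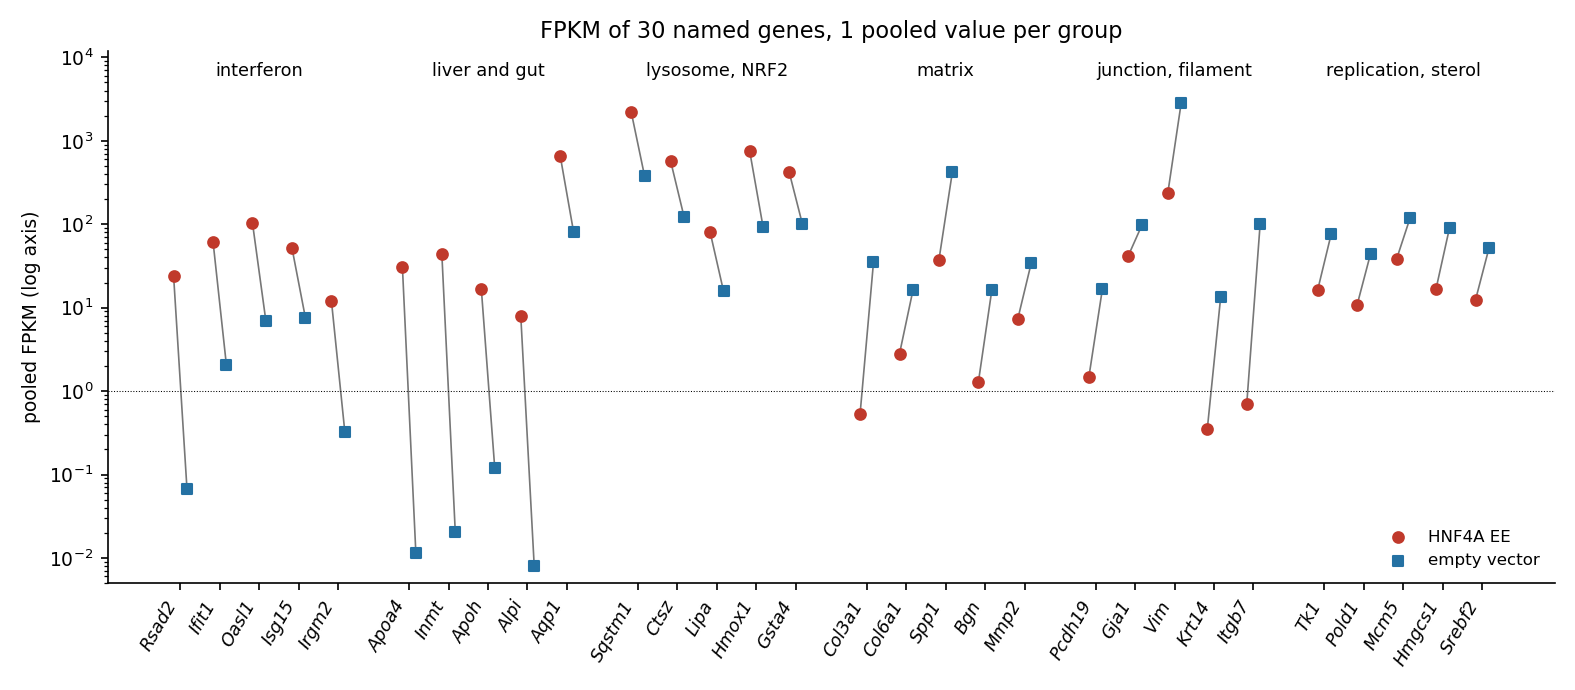
Pooled FPKM (y axis, log scale) of 30 named genes in 6 groups, with a red circle for HNF4A EE cells, a blue square for empty vector cells and a line joining the 2 values of a gene; the dotted line marks 1 FPKM. *Apoa4*, *Inmt* and *Alpi* lie above the line in HNF4A EE cells and far below it in empty vector cells, while *Sqstm1*, *Hmox1* and *Aqp1* are higher at 80.0 FPKM or more in empty vector cells.

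The chromatin genes most tied to enhancer marks lay mostly within 2-fold. The 22 genes of the MLL3/MLL4 complexes and other H3K4 enzymes had 0 higher and 3 lower, with a median of -0.28. *Kmt2d* (MLL4) was at 9.97 FPKM in HNF4A EE and 5.96 FPKM in empty vector cells and *Kmt2c* (MLL3) at 4.24 FPKM in HNF4A EE and 3.27 FPKM in empty vector cells. The subunits *Ash2l*, *Rbbp5*, *Wdr5* and *Kdm6a* (UTX) had log2 ratios of 0.23, 0.45, 0.33 and -0.46. *Dpy30*, a shared subunit, was lower at 71.1 FPKM in HNF4A EE and 174 FPKM in empty vector cells, as was *Men1* (menin) at 13.8 FPKM in HNF4A EE and 39.3 FPKM in empty vector cells. Of 34 genes of Polycomb, DNA methylation and H3K9 methylation 9 were lower and 0 higher (median -0.52), with *Cbx3* (HP1 gamma) at 9.76 FPKM in HNF4A EE and 43.3 FPKM in empty vector cells, *Uhrf1* at 32.5 FPKM in HNF4A EE and 117 FPKM in empty vector cells and its partner in maintenance methylation *Dnmt1* at 28.9 FPKM in HNF4A EE and 76.5 FPKM in empty vector cells. The 25 SWI/SNF and other remodellers had 6 lower and 0 higher (median -0.57).

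Secreted proteins of liver and plasma held several of the genes that appear only in HNF4A EE cells. Of 36 listed apolipoproteins and other secreted liver proteins 13 were expressed, 8 of them below 1 FPKM in empty vector cells, and 6 of the 10 with a ratio were higher. *Saa1*, an acute phase protein, was at 7.06 FPKM in HNF4A EE and 0.0417 FPKM in empty vector cells. *Afp* was present in both groups, at 51.1 FPKM in HNF4A EE and 55.8 FPKM in empty vector cells, and *Fetub* at 13.1 FPKM in HNF4A EE and 6.92 FPKM in empty vector cells. Serpins had 9 higher and 2 lower of 16 (median 2.04), 5 of them below 1 FPKM in empty vector cells. *Serpinb9* was at 35.1 FPKM in HNF4A EE and 4.40 FPKM in empty vector cells, with the caution that the Serpinb9 genes are near copies. Of 43 listed genes of complement and coagulation 9 were expressed, of which 5 were higher and 2 lower (median 1.17). The other entries did not meet the rule and are not in the count. This list is not confined to secreted proteins, since it also holds receptors. Higher were *Thbd* (thrombomodulin) at 40.8 FPKM in HNF4A EE and 18.2 FPKM in empty vector cells, the urokinase receptor *Plaur* at 204 FPKM in HNF4A EE and 51.3 FPKM in empty vector cells, *F3* (tissue factor) at 149 FPKM in HNF4A EE and 18.6 FPKM in empty vector cells, *Procr*, the protein C receptor, at 282 FPKM in HNF4A EE and 41.1 FPKM in empty vector cells, and the plasminogen activator *Plat* at 42.1 FPKM in HNF4A EE and 9.27 FPKM in empty vector cells. Lower were *Tfpi*, the inhibitor of the tissue factor pathway, at 1.55 FPKM in HNF4A EE and 3.74 FPKM in empty vector cells, and the complement protease *C1s1* at 0.343 FPKM in HNF4A EE and 1.42 FPKM in empty vector cells.

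The expressed genes were set beside their values in *Hnf4a* cKO livers, which still list *Hnf4a* at 144 FPKM, against 275 FPKM in control livers. The tables give no value for the deleted exons alone. Of the 9229 genes also expressed in the livers, 6.88% were lower and 6.67% higher by 2-fold or more in cKO livers over control livers. Among the 963 of these that were higher in HNF4A EE cells, 182 (18.9%) were lower and 91 (9.45%) higher in cKO livers, with a median log2 ratio of -0.21. Among the 764 that were lower in HNF4A EE cells, 64 (8.38%) were lower and 105 (13.7%) higher in cKO livers, with a median of 0.09. For genes higher in HNF4A EE cells the share lower in cKO livers was 25.7% below 1 FPKM in empty vector cells, 20.9% from 1 to below 5, 17.6% from 5 to below 20 and 13.9% from 20 to below 100. For genes lower in HNF4A EE cells it was 16.2% from 1 to below 5 FPKM, 9.38% from 5 to below 20, 6.30% from 20 to below 100 and 2.91% from 100 to below 500. The share higher in cKO livers lay between 7.95% and 11.2% in these classes of genes higher in HNF4A EE cells. For genes lower in HNF4A EE cells it was 22.2% from 1 to below 5 FPKM and 13.6% from 100 to below 500. In each class of these lower genes it was above the share lower in cKO livers. Shares per class over all genes were not computed, so a link of these classes to HNF4A loss was not tested. The 2 comparisons share no samples, and no test of the overlap was made.

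Single genes went both ways in the livers, and those named here were picked after their values were seen from the 36 entries with 8 FPKM or more in HNF4A EE and less than 1 FPKM in empty vector cells. *Apoa4* was at 114 FPKM in cKO livers and 964 FPKM in control livers, *Inmt* at 258 FPKM in cKO livers and 850.3 FPKM in control livers, and *Rab17*, an epithelial RAB that was at 8.81 FPKM in HNF4A EE and 0.456 FPKM in empty vector cells, at 1.14 FPKM in cKO livers and 13.6 FPKM in control livers. The glutathione transferase *Gsta2* was at 9.11 FPKM in HNF4A EE and 0.0513 FPKM in empty vector cells, and at 1.60 FPKM in cKO livers and 9.42 FPKM in control livers. On the other side *Sorcs2*, a sorting receptor, was at 12.4 FPKM in HNF4A EE and 0.0310 FPKM in empty vector cells, and in the livers was higher in cKO, at 11.3 FPKM in cKO livers and 0.0357 FPKM in control livers. *Fam25c* was at 12.6 FPKM in HNF4A EE and 0.192 FPKM in empty vector cells, and at 273 FPKM in cKO livers and 36.6 FPKM in control livers. *Map7d2*, a microtubule binding protein with 69.7 FPKM in HNF4A EE and 0.118 FPKM in empty vector cells, was listed at 0 in cKO and control livers.

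Sites of HNF4A itself were looked up in the same promoters. The letters CAAAGTCCA, on either strand, occur in 0.491% of all promoters, in 7 of 854 promoters of higher genes (0.820%), in 0 of 776 of lower genes and in 18 of 5946 of genes between (0.303%). With 25 genes in all, this is a description of few promoters. The related repeat CAAAGGTCA occurs in 3 promoters of higher, 1 of lower and 16 of between genes. The 7 higher genes with CAAAGTCCA are *Acsbg1*, *Cptp*, *Gpnmb*, *Nudt22*, *Zfp28*, *Alpi* and *Slfn2*, and 3 of them, chosen after the values were seen for their unlike levels, are printed to show where the letters lie. *Alpi* is shown at chr1:87101607-87101706 (minus strand), *Nudt22* at chr19:6996038-6996137 (minus strand) and *Gpnmb* at chr6:49036327-49036426 (plus strand), with capitals for the match.
Alpi: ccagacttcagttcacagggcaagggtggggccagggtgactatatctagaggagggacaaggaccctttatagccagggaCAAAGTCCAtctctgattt
Nudt22: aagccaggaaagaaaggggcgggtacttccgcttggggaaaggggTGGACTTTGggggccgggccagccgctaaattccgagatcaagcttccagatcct
Gpnmb: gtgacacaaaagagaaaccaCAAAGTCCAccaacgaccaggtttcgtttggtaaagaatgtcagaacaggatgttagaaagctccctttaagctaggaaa
The match lies 11 bases before the start site in *Alpi*, 47 in *Nudt22* and 163 in *Gpnmb*. *Gpnmb*, a membrane glycoprotein of lysosomes and macrophages, was at 177 FPKM in HNF4A EE and 34.9 FPKM in empty vector cells, and *Nudt22*, a Nudix hydrolase, at 23.5 FPKM in HNF4A EE and 10.4 FPKM in empty vector cells. Whether HNF4A binds there was not tested. Promoters of the 66 genes below 1 FPKM in empty vector cells and higher by 16-fold or more had a median GC content of 53.8%, against 61.7% for all expressed genes and 56.7% for all promoters of the table. TATAAA occurs in 22.7% of the 66, against 6.35% for expressed genes (483 of 7601) and 12.9% for all promoters (1998 of 15485). All promoters take in those of the expressed genes. Neither GC content nor TATAAA was computed for the genes that did not meet the rule, which are low in empty vector cells as the 66 are. Whether either trait is particular to the 66 was therefore not tested.

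By position, the X chromosome differed from the autosomes. Of 337 X-linked genes 19 (5.64%) were higher and 68 (20.2%) lower, with a median log2 ratio of -0.31, and of 10363 autosomal genes 11.9% were higher and 10.3% lower, with a median of -0.004. The gap was there in each class with more than 10 X-linked genes: the X and autosomal medians were -0.07 and 0.14 from 1 to below 5 FPKM in empty vector cells, -0.25 and 0.05 from 5 to below 20, -0.34 and -0.10 from 20 to below 100, and -0.46 and -0.28 from 100 to below 500. The cause of this gap was not tested, and with 1 pooled value per group its spread between cultures is unknown. Among the lowest X-linked genes were *Bgn*, *Pcdh19* and *Cd40lg*, the ligand of CD40, at 11.3 FPKM in HNF4A EE and 103 FPKM in empty vector cells, and among the highest were *Map7d2* and *Pgrmc1*, a heme-binding membrane protein, at 368 FPKM in HNF4A EE and 88.9 FPKM in empty vector cells. Chromosome 19 had the largest share of higher genes of all chromosomes, 15.3%, with a median of 0.18.

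**Figure D5:**
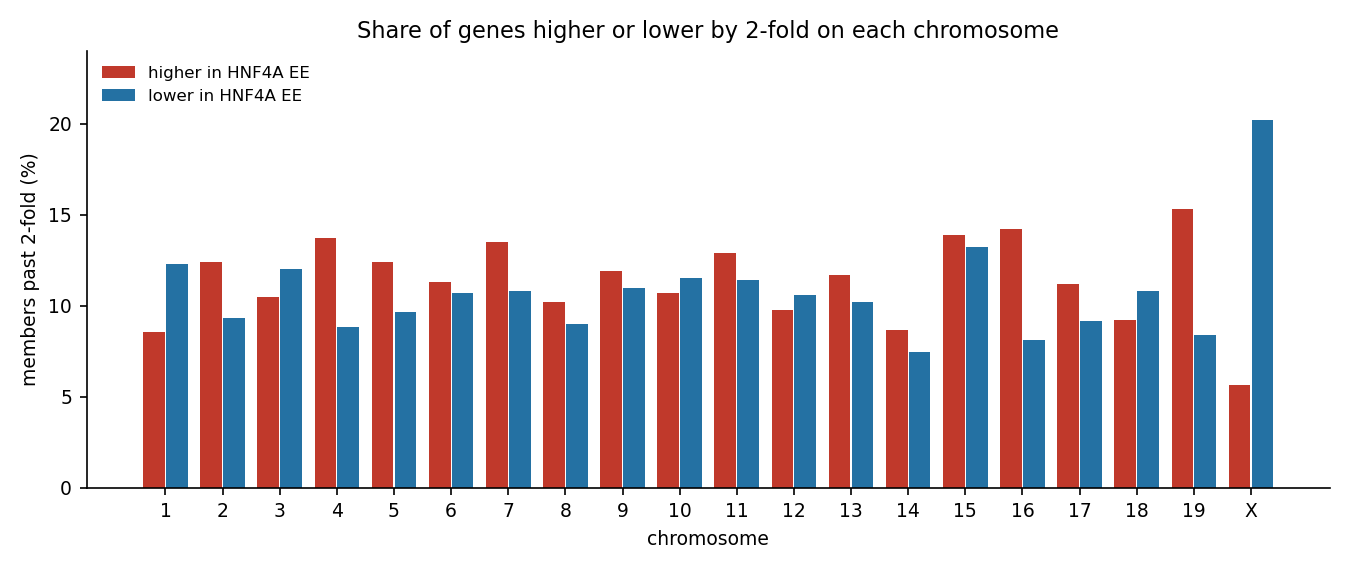
Percent of expressed genes higher (red) or lower (blue) by 2-fold or more in HNF4A EE cells on each chromosome. The X chromosome has the lowest share of higher genes, 5.64%, and the highest share of lower genes, 20.2%; the autosomes lie between 8.56% and 15.3% for higher genes.

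Neighbouring genes at times shared a direction. There were 15 runs of 4 or more expressed neighbours called the same way, and several are families of near copies, where shared reads can give the appearance of a common direction. On chromosome 16 a run of 6 higher genes over 469.5 kb holds *Parp14*, *Dtx3l* and *Parp9*, which interferon is known to induce together. On chromosome 19 *Lipa* lies beside *Ifit2*, *Ifit3*, *Ifit3b* and *Ifit1* in a run of 5 over 157.7 kb. The glutathione transferases *Gsta4*, *Gsta1*, *Gm3776* and *Gsta2* on chromosome 9, the OAS genes on chromosome 5 and the Serpinb genes on chromosome 13 form runs of 4 higher genes each. A run of 4 lower genes on chromosome 15 has *Ly6e*, *Ly6a*, *Ly6c1* and *Zfp41*.

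Entries for small RNAs were uneven and are reported with caution, since short transcripts within larger genes can take up reads of their hosts. Of 43 expressed entries for small RNAs and their host genes 3 were higher, 13 lower and 7 listed at 0 in a group. *Mir5133* was the entry with the second highest FPKM of HNF4A EE cells, 6164 FPKM, and had 7566 FPKM in empty vector cells. *Snora34* and *Snora44* were listed at 0 in HNF4A EE cells and at 20.5 and 14.1 FPKM in empty vector cells, and *Snora2b* at 18.8 FPKM in HNF4A EE cells and at 0 in empty vector cells. *Gas5* and *Snhg5*, host genes of small nucleolar RNAs, lay between, with log2 ratios of -0.80 and -0.78.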

How the data were processed

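RNA-seq of NIH 3T3 cells (3 HNF4A EE and 3 empty vector samples) and of livers (3 *Hnf4a* cKO and 3 control) was used as deposited. The authors aligned reads to mm10 with STAR and computed FPKM, fragments corrected for exon length and library size, with Cufflinks. Versions are STAR 2.5.0b and Cufflinks 2.2.1 by the submitters' processing notes. The deposited tables hold 1 pooled FPKM per gene and group, and 0 columns of values per sample. Annotation, strand setting and scaling were not given in the sources used here. Further columns hold the authors' own comparison (fold change, test statistic, p-value, q-value and a mark for significance), and none of them was used.

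Log2 ratios, counts past 2-fold and medians were computed with Python 3.11.15, pandas 2.3.3 and NumPy 2.4.6, and plots with Matplotlib 3.10.9, with no test. Depth is unknown, so no precision can be given, and FPKM values of small RNAs and of near copies are uncertain. The steps were tested on simulated data. Alternatives were the fold limit, a constant added to FPKM, the floor, the scaling, the status and entries of several genes. Families (114) and motifs (15) were matched by symbol and by letters. Promoters came from RefSeq (GRCm38.p6) for 7601 expressed genes, with a start site within 1000 bases of the end of the locus.

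Named were *Hnf4a*, the 10 most abundant entries of each group, the 5 highest and 5 lowest ratios of each class, up to 6 members per family with the largest ratios and 5 FPKM or more, all members of families of 12 or fewer, and genes nearest the floor. Not every gene so taken is printed, and some are not reported here. The MLL subunits, *Atf4*, *Nqo1*, *Tfeb*, *Gas5*, *Snhg5*, X-linked genes, neighbour runs and genes set beside livers or shown by their promoters were picked after their values were seen. The members, lists and tests were chosen with earlier results of these data known.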

Additional observations from a re-analysis of the deposited data

Results flagged for a closer look

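Of 18 entries that the table gives as not tested although a group reached 1 FPKM, 16 are small RNAs, and 7 were above the empty vector and 11 below it. Their values lie outside the comparison. In HNF4A EE cells *Mir6958* was listed at 357 FPKM, *Mir207* at 106 FPKM, *Mir7-1* at 15.4 FPKM, *Mir692-2* at 14.3 FPKM, *Mir708* at 14.3 FPKM and *Snora75* at 5.67 FPKM, and these 6 were listed at 0 in empty vector cells. *Snora41* was at 10.7 FPKM in HNF4A EE cells and 9.04 FPKM in empty vector cells. Of the 11 below, *Snord49a* was listed at 0 in HNF4A EE cells and at 1334 FPKM in empty vector cells, and *Snord104* at 0 in HNF4A EE cells and at 367.8 FPKM in empty vector cells. *Mecom* was at 1.73 FPKM in HNF4A EE cells and 3.94 FPKM in empty vector cells, and the remaining 8 were listed at 0 in HNF4A EE cells and between 2.30 and 29.9 FPKM in empty vector cells. The locus given for *Mir708* spans 697918 bases and that for *Mir692-2* spans 109 bases.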

How the results depend on the processing

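No paired analysis was possible because the tables give 1 pooled FPKM per group, and for the same reason leaving out replicates was not run. A log2 limit of 0.5 gave 2668 higher and 2684 lower genes, and a limit of 2 gave 393 higher and 256 lower. With both columns set to the same FPKM sum the median of all genes was 0.132, against -0.012 as deposited, and 13 of 87 families with 10 or more members changed the sign of their median. The counts of higher and lower genes stayed within 1.5 times the values above under a constant of 1 or 0.1 added to FPKM, a floor of 5 FPKM in either group or of 1 FPKM in both groups, no floor, centring, every status, and without entries of several genes. Of 689 named genes with a ratio, 78 moved by over 1.5-fold with 1 added to FPKM. Scaling to the same sum and centring each shift every log2 ratio by a constant of less than 1.5-fold. That 0 named genes moved with them was therefore fixed beforehand. Of the counts and medians of families, 51 moved by over 1.5-fold with 1 added to FPKM, 53 with a floor of 5 FPKM and 50 with 1 FPKM required in both groups. The median of liver transcription factors turned to -0.131 with 1 FPKM required in both groups, since only *Sox9* is left of its 2 genes. Depth, and so the precision of low FPKM, is unknown.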
